A study of Homo sapiens with 6 samples.

Results

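The genes described here are 50 named factors of MYC-driven ribosome production, of 19977 gene symbols in the deposited table. They were taken by symbol: MYC, its dimer partner MAX and the competing MAX partners, RNA polymerase I with its factors, and proteins that process rRNA and assemble the ribosomal subunits in the nucleolus. Polyadenylated RNA of U2OS cells, a human osteosarcoma line, was measured 48 hours after transfection. The siNUDT5 cells (3 libraries) received an siRNA against NUDT5, a NUDIX hydrolase that cleaves ADP-ribose. Their controls received a non-targeting siRNA (siCtrl, 3 libraries), and both groups were otherwise untreated. Both groups are of 1 cell line, and the labels name neither the number of siRNAs against NUDT5 nor separate cultures, so each p-value here speaks of library-to-library spread that may be only technical.

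MYC is a transcription factor that binds DNA as a dimer with MAX, at E-boxes of the form CACGTG among others. The MXD proteins, MXI1 and MNT also pair with MAX and oppose MYC at such sites. MYC is known for raising ribosome production, through RNA polymerase I, which transcribes the rRNA precursor in the nucleolus, and through the proteins that modify, cut and fold that precursor into the small and large subunits. Many of these proteins act in fixed complexes.

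Values are TPM, a level per transcript length that sums to 1000000 in each library. The target was lowered in each siNUDT5 library, with NUDT5 at 2.82 ± 0.198 TPM in siNUDT5 and 49.1 ± 2.90 TPM in siCtrl (SD, n = 3 each). An exact two-sided permutation test returned p = 0.1, and no smaller p can come from 3 against 3 libraries. Mesenchymal markers were present, with 9 of 10 at a mean of at least 1 TPM. Their summed level was 5237 to 5373 TPM in siNUDT5 and 4549.7 to 4812 TPM in siCtrl. VIM made up most of it, at 3513 to 3589 TPM in siNUDT5 and 3028 to 3188 TPM in siCtrl. Of the 9 markers 3 had a lower mean in siNUDT5. Of 7 epithelial markers 5 reached 1 TPM, led by the keratins KRT8 and KRT18, with summed levels of 681 to 760.0 TPM in siNUDT5 and 773 to 925 TPM in siCtrl. The part of these differences in the results below was not tested, and in bulk RNA fewer cells of a type and less RNA per cell cannot be told apart. TPM keeps no total depth, but steps of low values gave 64.1% of the depth of siCtrl 1 for siCtrl 2, against 89.4% to 118% for the siNUDT5 libraries and 112% for siCtrl 3. The siCtrl 2 library also stood apart from siCtrl 1 and siCtrl 3, by a median of 0.296 and 0.227 on the log2(TPM + 1) scale over 12236 tested genes, where siCtrl 1 and siCtrl 3 differed by 0.107. Results are also given without siCtrl 2, and the part of its lower depth in them was not tested.

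MYC, MAX and RRN3 fell in siNUDT5 cells to between 66.6% and 78.5% of their control level, while the other 46 tested members did not pass the threshold. MYC and MAX form the activating dimer, and RRN3 starts transcription by RNA polymerase I. The fit was limma on log2(TPM + 1), siNUDT5 minus siCtrl, with a Benjamini-Hochberg adjusted p under 0.05 over the 12236 genes that averaged 1 TPM or more. Of the 50 members 49 were tested. The 3 that passed are 6.12% of these 49, all lower, where 16.1% of all tested genes passed, 10.9% higher and 5.2% lower. The members' share lower was thus near the background. Of all calls 67.7% were higher, against 53.8% with median-ratio scaling, 51.3% with quantile normalization and 50.1% with an adjustment for GC content. No member passed as higher in limma, and 1, MXD4, was higher at an unadjusted p under 0.05.

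**Figure D1:**
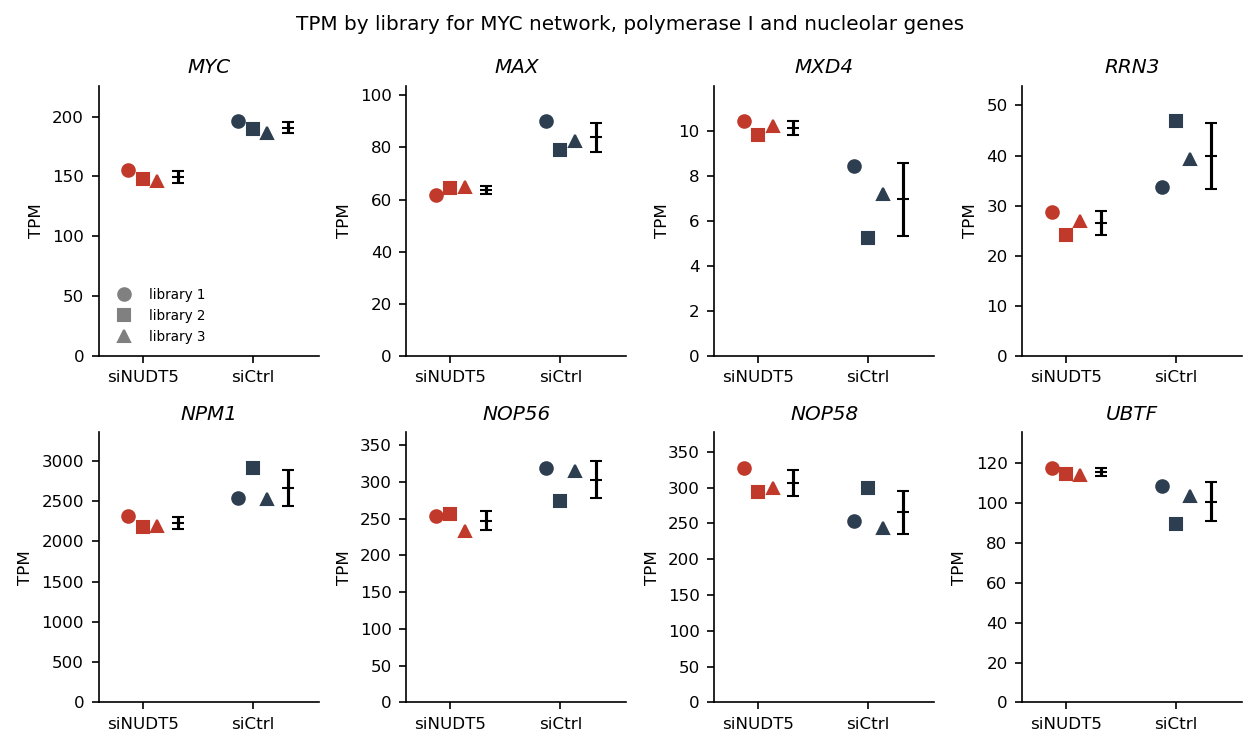
TPM (vertical axis, from 0) of 8 members in each siNUDT5 library (red, left) and each siCtrl library (dark, right), with the marker shape giving the library number and black bars the mean and SD of 3 libraries. MYC, MAX and RRN3 lie lower in all 3 siNUDT5 libraries than in any siCtrl library, and siCtrl 2 (square) is the farthest control in MXD4 and UBTF.

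MYC stood at 155, 148 and 146 TPM in siNUDT5 1 to 3, against 196, 189.7 and 187 TPM in siCtrl 1 to 3. The groups did not overlap, and the libraries within a group lay close together. The means were 149.7 ± 4.89 TPM in siNUDT5 and 191 ± 4.84 TPM in siCtrl (SD, n = 3 each). MYC fell by 0.35 on the log2 scale (standard error 0.0710, limma adjusted p = 0.0143), to 78.5% of the control mean. Of the 49 tested members MYC departed least in the odd control library, where its value lay 0.01 below the mean of siCtrl 1 and 3 on the log2 scale.

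MAX, the partner with which MYC and its competitors pair, stood at 61.8, 64.4 and 64.8 TPM in siNUDT5 1 to 3. In siCtrl 1 to 3 it stood at 90.1, 78.9 and 82.6 TPM, above each siNUDT5 library. MAX fell by 0.39 on the log2 scale (standard error 0.0832, limma adjusted p = 0.0170), to 75.9% of the control mean. The MYC level over the MAX level was 2.51, 2.30 and 2.25 in siNUDT5 and 2.18, 2.40 and 2.26 in siCtrl, so that the groups overlapped in this ratio.

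The competing MAX partners were all lower in level than MAX. MXD4, a MYC antagonist, stood at 10.4, 9.80 and 10.2 TPM in siNUDT5 and at 8.43, 5.24 and 7.17 TPM in siCtrl. The groups did not overlap, but siCtrl 2 was well below the other controls, and the log2 change of 0.51 had a limma adjusted p of 0.0563. Without siCtrl 2 the log2 change was 0.34, with a limma adjusted p of 0.0269. The MXD4 level over the MAX level was 0.168, 0.152 and 0.157 in siNUDT5 and 0.0936, 0.0664 and 0.0868 in siCtrl. Since MXD4 lay higher and MAX lower, each without overlap, this ratio could not overlap and adds nothing to them. MXI1 averaged 27.5 ± 1.73 TPM in siNUDT5 and 30.6 ± 5.30 TPM in siCtrl (SD, n = 3 each), with a log2 change of -0.14. MNT, which is found in most dividing cells, averaged 8.61 ± 0.709 TPM in siNUDT5 and 8.37 ± 0.993 TPM in siCtrl, with a log2 change of 0.04. MXD1, a partner linked to differentiation, was the lowest of the tested members at 1.41 to 1.75 TPM in siNUDT5 and 1.57 to 1.90 TPM in siCtrl. MXI1, MNT and MXD1 overlapped between the groups and did not pass.

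CACGTG was searched in the 250 bases before the RefSeq start of each gene (GRCh38.p14), where 41 of the 50 members were matched. MYC, NOP58, NOLC1, BOP1, RRP12, RRS1, DDX18, POLR1E and TCOF1 had no entry. The word, which reads the same on both strands, was found in 4 of the 41 windows (9.76%), against 9.04% of the windows of tested genes and 6.49% of all 27305 windows. Members thus carried it about as often as tested genes did. An exon of the same gene in GENCODE 29 overlapped 33 of the 41 windows. The windows of MAX and RRN3 did not hold the word. The 4 members that did are shown, 5′ to 3′ on the gene's strand with CACGTG in capitals, because they include 2 of the MYC antagonists, MXD4 and MNT.
MXD4 (chr4:2262330-2262359, minus strand, 238 bases before the start, in no exon of the gene): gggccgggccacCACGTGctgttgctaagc
MNT (chr17:2401236-2401265, minus strand, 193 bases before the start, in no exon of the gene): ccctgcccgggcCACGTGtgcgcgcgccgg
UTP20 (chr12:101280083-101280104, plus strand, 10 bases before the start, in no exon of the gene): cttttttccgtcCACGTGaccc
EBNA1BP2 (chr1:43172790-43172819, minus strand, 237 bases before the start, within an exon of the gene): gatattgttggcCACGTGggatcgaagacc

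The log2 changes of these 4 members ran from -0.07 in EBNA1BP2 to 0.51 in MXD4, with a median of 0.01, and none passed. Over the 36 tested members without the word the median was -0.05 and 2 passed. MYC was not among the 36, since it was not matched.

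In the RNA polymerase I group, RRN3 was the member that passed. RRN3 (TIF-IA) joins the polymerase to its promoter-bound factors and makes it competent to start. Its level was 28.7, 24.1 and 26.9 TPM in the siNUDT5 libraries, against 33.6, 46.9 and 39.3 TPM in siCtrl 1 to 3. The groups did not overlap, and siCtrl 2 was the highest control. RRN3 fell by 0.56 on the log2 scale (standard error 0.132, limma adjusted p = 0.0244), the most of the 49 tested members, to 66.6% of the control mean. Without siCtrl 2 it fell by 0.44 (limma adjusted p = 0.00498). RefSeq names 4 pseudogenes after RRN3, none of them in the table, and no source used here says how the authors counted reads shared between copies.

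UBTF, which bends rDNA promoters and keeps rDNA chromatin open, lay on the other side of its control. It stood at 118, 115 and 114 TPM in siNUDT5 and at 109, 89.6 and 104 TPM in siCtrl. The groups did not overlap, and the log2 change of 0.20 (limma adjusted p = 0.174) did not pass. Without siCtrl 2 the log2 change of UBTF was 0.12 (limma adjusted p = 0.203). The RRN3 level over the UBTF level was 0.244, 0.210 and 0.236 in siNUDT5 and 0.310, 0.523 and 0.379 in siCtrl. With RRN3 lower and UBTF higher, each without overlap, this ratio could not overlap and adds nothing to them.

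POLR1A, the largest catalytic subunit, stood at 34.8, 34.6 and 33.1 TPM in siNUDT5 and at 37.6, 34.8 and 37.3 TPM in siCtrl. The second catalytic subunit POLR1B averaged 63.0 ± 1.58 TPM in siNUDT5 and 64.6 ± 9.23 TPM in siCtrl. POLR1C, a subunit shared with RNA polymerase III, averaged 76.2 ± 5.79 TPM in siNUDT5 and 75.9 ± 5.88 TPM in siCtrl (SD, n = 3 each). The log2 changes of these 3 subunits, -0.10, -0.03 and 0.01, did not pass. POLR1E, a subunit of the initiation-competent enzyme, was the most abundant of the 4 at 186, 197 and 192 TPM in siNUDT5 and 207, 219 and 214 TPM in siCtrl. Its groups did not overlap, and its log2 change of -0.15 had a limma adjusted p of 0.173. TCOF1, the treacle protein that recruits polymerase I factors, stood at 74.3, 70.4 and 66.7 TPM in siNUDT5 and at 86.6, 70.1 and 85.5 TPM in siCtrl. It overlapped only through siCtrl 2, which lay below siNUDT5 1 and siNUDT5 2. Its log2 change was -0.19 (limma adjusted p = 0.254) with all libraries and -0.29 (0.0116) without siCtrl 2.

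Of the nucleolar phosphoproteins, NPM1 and nucleolin had the highest levels of the 50 genes. NPM1, a histone and pre-ribosome chaperone, stood at 2308, 2178 and 2189.8 TPM in siNUDT5 and at 2539, 2912 and 2526 TPM in siCtrl. The groups did not overlap, and the log2 change of -0.25 lay just outside the threshold, at a limma adjusted p of 0.0513. RefSeq names 50 pseudogenes after NPM1, so its level is uncertain in the same way as that of RRN3. Nucleolin (NCL), which binds nascent rRNA, stood at 952, 885 and 928 TPM in siNUDT5 and at 946, 1026 and 924 TPM in siCtrl. Its groups overlapped, as did those of NOLC1, a chaperone of snoRNPs, at 142, 129.9 and 128 TPM in siNUDT5 and 141, 148 and 144 TPM in siCtrl. None of the 3 passed in limma with all libraries, where NPM1 was the 1 with an unadjusted p under 0.05. Without siCtrl 2 NPM1 passed as lower (-0.19, adjusted p = 0.0357).

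The core proteins of the snoRNPs, which guide rRNA modification, lay on both sides of their control levels, and none of the 5 passed in limma with all libraries (1, NOP56, at an unadjusted p under 0.05). Box C/D particles contain the methyltransferase fibrillarin (FBL) with NOP56 and NOP58. NOP56 stood at 253, 256 and 233 TPM in siNUDT5, below the 319, 274 and 315 TPM in siCtrl. Its log2 change was -0.29, with a limma adjusted p of 0.0541. NOP58 stood at 328, 294 and 299 TPM in siNUDT5, against 253, 299.9 and 243 TPM in siCtrl, with a log2 change of 0.21 (limma adjusted p = 0.174). The groups overlapped through siCtrl 2. The NOP56 level over the NOP58 level was 0.772, 0.871 and 0.779 in siNUDT5 and 1.26, 0.914 and 1.30 in siCtrl. NOP56 was thus the lower of the pair in the 3 siNUDT5 libraries and in siCtrl 2, and the higher in siCtrl 1 and 3. RefSeq names 3 pseudogenes after NOP56. The transcripts of NOP56 and NOP58 have 56.0% and 41.3% GC, and the part of GC content in this ratio was not tested. Without siCtrl 2 both passed in limma, NOP56 as lower (-0.36, adjusted p = 0.00168) and NOP58 as higher (0.30, adjusted p = 0.00564). FBL stood at 489, 547 and 499 TPM in siNUDT5 and at 545, 499 and 525 TPM in siCtrl, overlapping, with a log2 change of -0.03.

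Box H/ACA particles contain the pseudouridine synthase dyskerin (DKC1) and NHP2. DKC1 averaged 339 ± 5.97 TPM in siNUDT5 and 366 ± 16.3 TPM in siCtrl (SD, n = 3 each), without overlap, and its log2 change of -0.11 did not pass. NHP2 stood at 223, 271 and 236 TPM in siNUDT5 and at 309, 249.7 and 303 TPM in siCtrl. It overlapped through siNUDT5 2 and siCtrl 2, with a log2 change of -0.24 (limma adjusted p = 0.181) and of -0.34 (0.00788) without siCtrl 2.

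**Figure D2:**
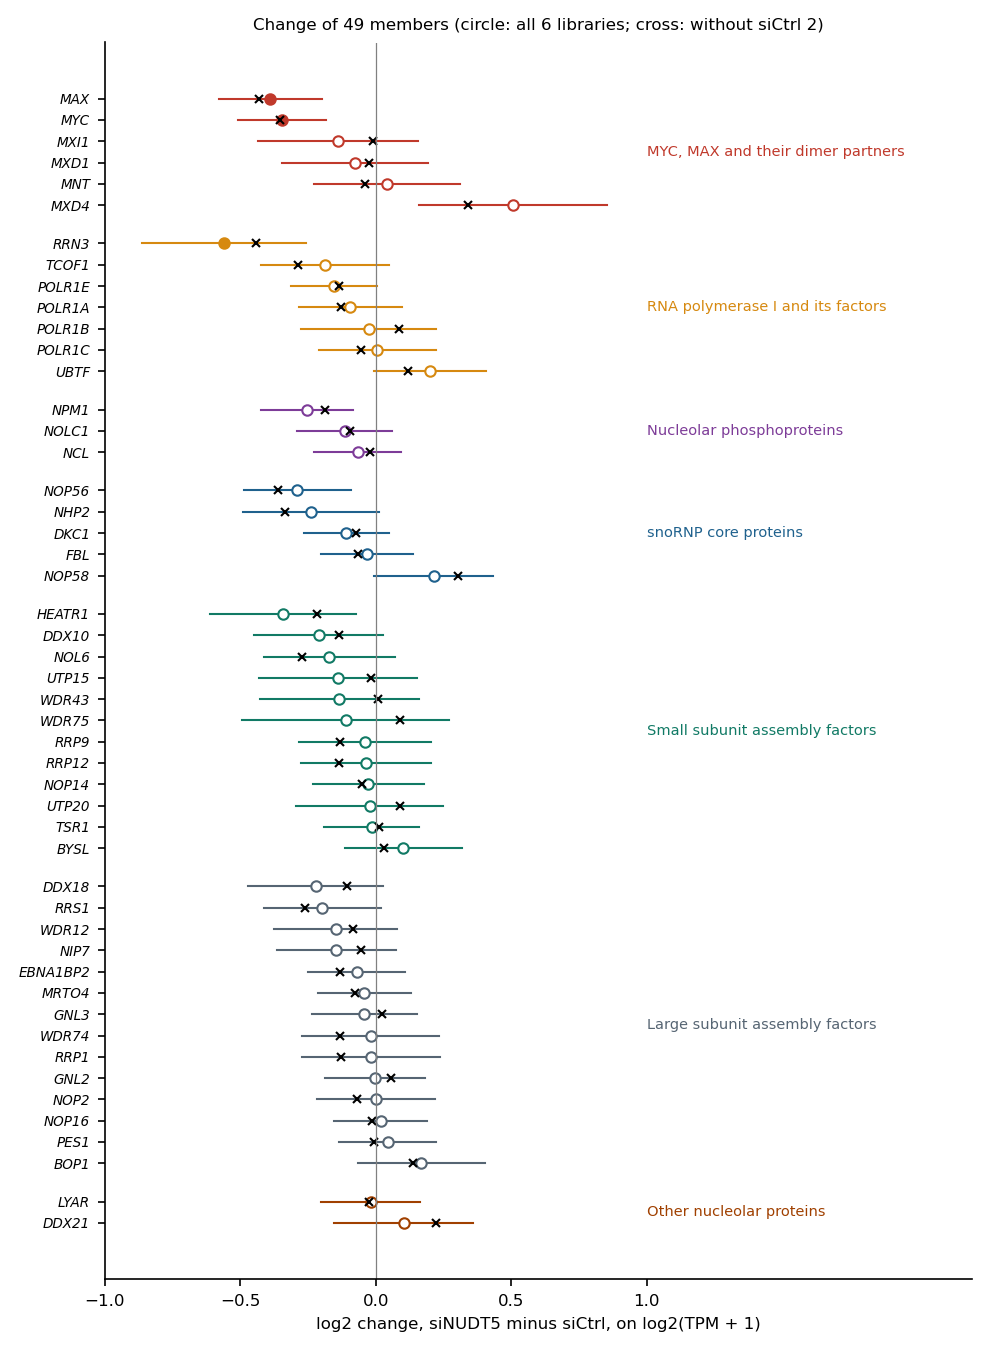
Log2 change, siNUDT5 minus siCtrl, of the 49 tested members grouped by role, with 95% intervals from limma (lines). Filled circles passed an adjusted p of 0.05 and open ones did not, and crosses give the change without siCtrl 2. The 3 filled circles are MAX, MYC and RRN3, and 38 of the 49 circles lie below 0.

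Of the 12 small subunit factors none passed in limma with all libraries, and 1, HEATR1, had an unadjusted p under 0.05. HEATR1, a scaffold of the early processome, stood at 77.8, 74.1 and 74.7 TPM in siNUDT5 and at 83.3, 114 and 92.8 TPM in siCtrl. It was the 1 factor of this group whose siNUDT5 and siCtrl values did not overlap, with a log2 change of -0.34 (limma adjusted p = 0.0848), and it passed without siCtrl 2 (-0.22, adjusted p = 0.0449). NOL6, a processome protein, averaged 68.9 ± 4.39 TPM in siNUDT5 and 78.0 ± 9.07 TPM in siCtrl (SD, n = 3 each) and passed without siCtrl 2 as well (-0.27, adjusted p = 0.0177). The other 10 factors did not pass under either fit. WDR75 and WDR43, both of the subcomplex that couples the processome to rRNA transcription, had log2 changes of -0.11 and -0.13 with all libraries and of 0.09 and 0.01 without siCtrl 2. UTP15, of the same subcomplex, had -0.14 and -0.02. The helicase gene DDX10 had a log2 change of -0.21, and RRP9, a U3 snoRNP protein, and RRP12, an export factor, both had -0.04. NOP14 (-0.03), UTP20 (-0.02), TSR1 (-0.01) and BYSL (0.10) completed the group.

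Of the 15 large subunit factors 14 were tested and none passed in limma with all libraries, nor had any an unadjusted p under 0.05. The PeBoW complex, needed for processing of the large subunit rRNAs, consists of PES1, BOP1 and WDR12. PES1 stood at 245, 264 and 244 TPM in siNUDT5 and at 253, 227 and 250.4 TPM in siCtrl. BOP1 stood at 19.1, 21.5 and 23.0 TPM in siNUDT5 and at 18.5, 17.8 and 19.9 TPM in siCtrl, and WDR12 at 31.0, 29.7 and 30.2 TPM in siNUDT5 and at 30.0, 36.9 and 34.4 TPM in siCtrl. All 3 overlapped between the groups, with log2 changes of 0.04, 0.17 and -0.15, and PES1 was listed far above its partners in each library, at 10.6 to 12.8 times the BOP1 level in siNUDT5 and 12.6 to 13.7 times in siCtrl.

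RRS1, which helps bring the 5S particle into the pre-60S subunit, averaged 66.6 ± 3.69 TPM in siNUDT5 and 76.6 ± 6.89 TPM in siCtrl (SD, n = 3 each). Its log2 change was -0.20 (limma adjusted p = 0.196), and -0.26 (0.0250) without siCtrl 2, where it was the 1 large subunit factor to pass. NIP7 had no overlap, at 105 to 113 TPM in siNUDT5 and 114 to 139 TPM in siCtrl, with a log2 change of -0.15 (limma adjusted p = 0.347). The helicase gene DDX18 had a log2 change of -0.22. The remaining large subunit members, namely EBNA1BP2, MRTO4, GNL3, GNL2, WDR74, RRP1, NOP2 and NOP16, had log2 changes between -0.07 and 0.02. PPAN was the member not tested, at 0.533 to 0.686 TPM in siNUDT5 and 0.298 to 0.619 TPM in siCtrl. The read-through gene PPAN-P2RY11, which shares its exons, was listed at 0 in all 6 libraries, and the neighbour P2RY11 averaged 1.41 ± 0.176 TPM in siNUDT5 and 1.53 ± 0.211 TPM in siCtrl.

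The last members, DDX21, a helicase that acts in both polymerase I transcription and rRNA processing, and LYAR, a nucleolar zinc finger protein, also overlapped. DDX21 stood at 463, 395 and 422 TPM in siNUDT5 and at 363, 468 and 367 TPM in siCtrl, with siCtrl 2 just above the highest siNUDT5 library. Its log2 change was 0.10 (limma adjusted p = 0.587), and 0.22 (0.0374) without siCtrl 2. LYAR averaged 88.3 ± 5.28 TPM in siNUDT5 and 89.4 ± 2.07 TPM in siCtrl.

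Across the 49 tested members the median log2 change was -0.07 (quartiles -0.15 and -0.01), against 0.05 (quartiles -0.12 and 0.23) over all tested genes. In 38 members (77.6%) the change was below 0, against 42.3% of tested genes. The groups did not overlap in 12 members (24.5%), against 37.3% of tested genes, and 10 of these 12 were lower (20.4% of members), against 12.9%. The median size of change was 0.11 in members and 0.17 in all tested genes. The median level was 88.3 TPM in members and 22.4 TPM in all tested genes. The part of level in the size of change was not tested. In 44 members the 95% interval lay within 0.5 either way, so that larger shifts were outside the interval of most factors. The exceptions were MAX, MYC, RRN3, HEATR1 and MXD4.

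The 3 calls depended on which library was left out. MYC, MAX and RRN3 passed without siCtrl 1 and without siCtrl 2, and missed the threshold without siCtrl 3 or any 1 siNUDT5 library, at limma adjusted p of 0.0528 to 0.103. Their log2 changes stayed between -0.33 and -0.37 for MYC, -0.34 and -0.43 for MAX and -0.44 and -0.67 for RRN3 when each library was left out in turn. With median-ratio scaling NPM1, NOP56 and HEATR1 also passed as lower, and with quantile normalization NOP56 and HEATR1 did. Lower calls over all 12236 tested genes also rose, from 636 to 895 with median-ratio scaling and to 965 with quantile normalization. Without siCtrl 2, 13 members passed, 10 lower and 3 higher (MXD4, NOP58 and DDX21), where 31.1% of all tested genes passed and 9.29% were lower. Members then made 26.5% and 20.4%.

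The odd control library moved with base composition. Over the 49 members, the log2 level in siCtrl 2 minus the mean of siCtrl 1 and 3 had a Pearson correlation of -0.892 (Spearman -0.884) with the GC content of the longest coding transcript in GENCODE 29. This is across genes of the same 3 libraries, which are not independent replicates, and over 12033 tested genes the Pearson value was -0.806. WDR75, with 39.3% GC, was 0.60 higher in siCtrl 2, and MXD4, with 64.0% GC, was 0.49 lower. Of 24 members under 50% GC 21 were higher in siCtrl 2, and of 25 members at or above 50% GC 23 were lower. Members were at the edge of their controls in siCtrl 2 in 47 of 49 cases, against 89.8% of tested genes.

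**Figure D3:**
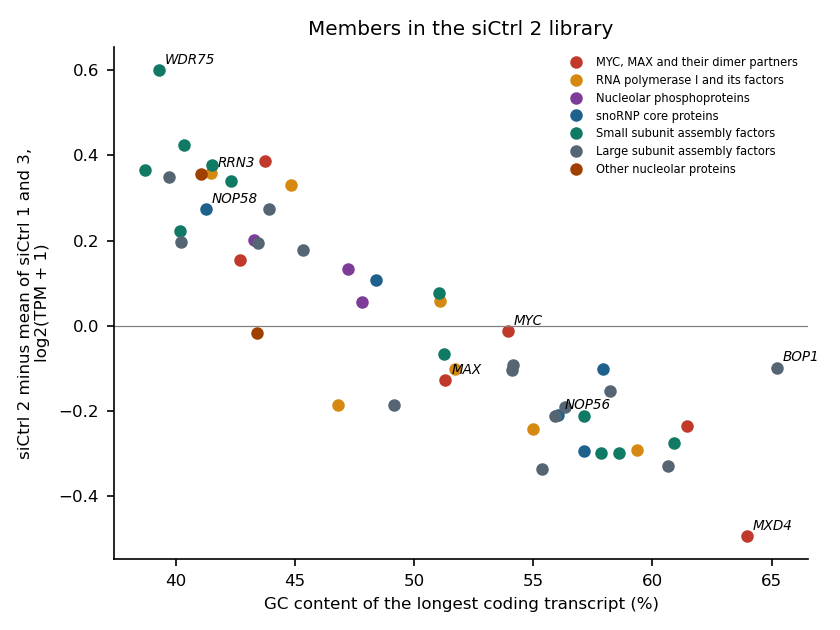
Level in siCtrl 2 minus the mean of siCtrl 1 and 3, on the log2(TPM + 1) scale (vertical axis), against transcript GC content in percent (horizontal axis) for the 49 tested members, coloured by role. The highest member is WDR75, 0.60 higher at 39.3% GC, and the lowest is MXD4, 0.49 lower at 64.0% GC, with a Pearson correlation of -0.892.

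Relative to the 6-library mean, the other libraries leaned the same or the opposite way to lesser degrees. The correlation of the members' deviation from their 6-library mean with GC content was -0.169, 0.693 and 0.219 in siNUDT5 1 to 3, and 0.625, -0.850 and 0.219 in siCtrl 1 to 3. That mean includes siCtrl 2, so its lean pushes the values of the other libraries upward. The group difference itself had a Pearson correlation of 0.336 with GC content over the members with all libraries and of -0.125 without siCtrl 2.

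**Figure D4:**
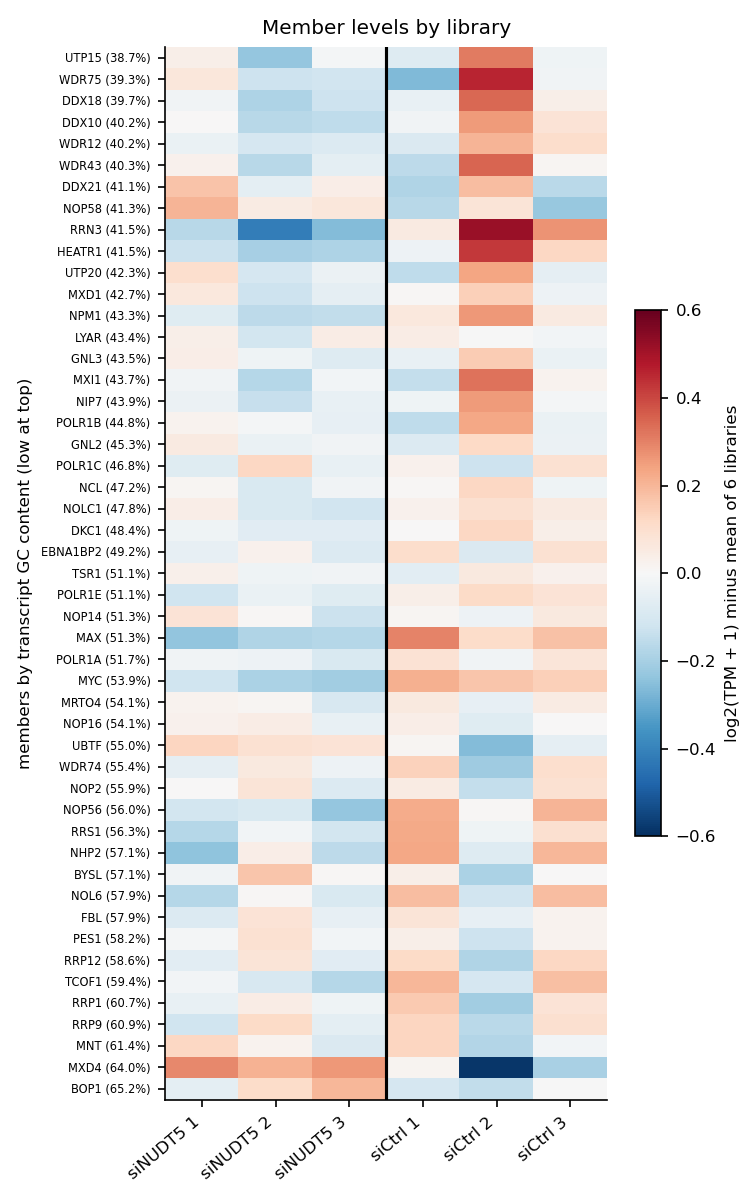
Log2(TPM + 1) of each tested member in each library minus the mean over the 6 libraries (colour, red higher and blue lower), with siNUDT5 libraries left of the line, siCtrl libraries right of it, and members ordered by transcript GC content in percent from low at the top to high at the bottom. The siCtrl 2 column runs from red at the top to blue at the bottom, while MYC and MAX are blue in all 3 siNUDT5 libraries and red in all 3 siCtrl libraries.

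A fit in which each library's dependence on GC content was subtracted, chosen after seeing the data, gave 25 members past the threshold, 23 of them lower. These are 51.0% and 46.9% of the members, where 40.6% and 20.3% of all tested genes passed and were lower. The subtraction also removed each library's mean offset, and it moved the median log2 change of all tested genes by -0.06. The parts of this offset and of GC content in the counts were not tested. MYC (-0.44), MAX (-0.46), RRN3 (-0.56) and NOP56 (-0.40) had the largest falls in that fit, with limma adjusted p of at most 0.000236, and MXD4 (0.33) and NOP58 (0.22) were the members higher. Factors that passed there as lower included HEATR1 (-0.34), TCOF1 (-0.32), NPM1 (-0.26), POLR1E (-0.22) and FBL (-0.16). The subtraction was fitted on the same 6 libraries and its degrees of freedom were not charged to the test, so its p-values are too small by an amount that was not measured.

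Other genes of the pathway were read from 10 further lists, with 231 of 232 entries found in the table and 225 distinct genes tested. In limma 9 of these genes were higher and 9 lower, 8.0% in all, against 16.1% of all tested genes. This even split did not hold under other scalings, with 6 higher and 17 lower for median-ratio scaling, 8 and 18 for quantile normalization, and 24 and 63 for the GC adjustment. SKP2, SHMT2, NDRG1 and GTF3C4 passed under all 15 alternatives. Without siCtrl 3, or without any 1 siNUDT5 library, 6 of the 225 genes passed. The list medians lay between -0.07 and 0.16, against 0.05 over all tested genes.

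**Figure D5:**
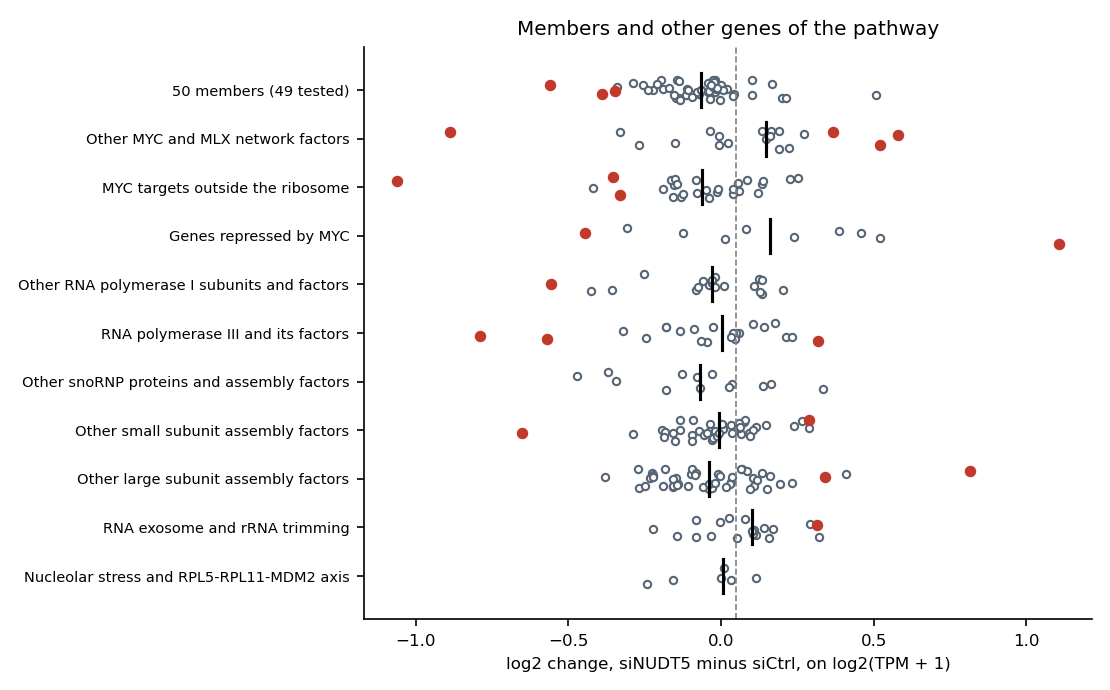
Log2 change, siNUDT5 minus siCtrl (horizontal axis), of the tested members (top row) and of the tested genes of 10 further lists, with filled red points for genes past an adjusted p of 0.05, black bars for the list medians and a dashed line at the median of all tested genes, 0.05. The filled points at the edges are SHMT2 on the left and NDRG1 on the right.

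Among 19 other MYC and MLX network factors, SKP2 fell and MYCL, MLX and FBXO28 rose. SKP2, an F-box protein that targets p27 and also binds MYC, stood at 58.3, 52.4 and 56.2 TPM in siNUDT5 and at 92.2, 119 and 101 TPM in siCtrl (log2 change -0.89, limma adjusted p = 0.00197). MYCL, a paralog of MYC, stood at 3.17, 3.43 and 3.02 TPM in siNUDT5 and at 1.82, 1.85 and 1.76 TPM in siCtrl (0.58, adjusted p = 0.00924). MYCL thus lay far below MYC in each library, where MYC stood at 146 to 196 TPM. MLX, a partner of the MONDO glucose sensors, had a log2 change of 0.37 (adjusted p = 0.0180), and FBXO28, an F-box protein, of 0.52 (adjusted p = 0.0311).

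Of 28 tested MYC targets outside the ribosome 3 fell, 25 did not pass, and the median was -0.06. SHMT2, the mitochondrial serine hydroxymethyltransferase, fell to 89.3 ± 3.97 TPM in siNUDT5, against 188 ± 23.7 TPM in siCtrl (SD, n = 3 each, log2 change -1.06, limma adjusted p = 0.000861). The phosphatase gene CDC25A (-0.35) and IMPDH2 (-0.33), an enzyme of guanine nucleotide synthesis, were the others. Of 10 genes that MYC represses in other settings, NDRG1 rose to 104 ± 2.85 TPM in siNUDT5, against 47.6 ± 2.56 TPM in siCtrl (1.11, adjusted p = 0.000298). GADD45A, of the same list, fell (-0.45), 8 did not pass, and the median was 0.16. SHMT2 is known also as an ATF4 target and NDRG1 as a hypoxia-responsive gene.

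Of 19 other RNA polymerase I subunits and factors 1 passed, TAF1A, a subunit of the SL1 promoter factor. TAF1A fell to 13.9, 14.1 and 15.3 TPM in siNUDT5, against 19.7, 27.8 and 18.4 TPM in siCtrl (log2 change -0.56, limma adjusted p = 0.0399). Its log2 change was -0.38 without siCtrl 2, and its call was lost with no filter on level (limma adjusted p = 0.0705). In RNA polymerase III, which makes 5S rRNA and tRNAs, 2 of 22 genes fell and 1 rose. They were GTF3C4 (-0.79) and POLR3F (-0.57) as lower, and GTF3C1 (0.32) as higher, with GTF3C4 and GTF3C1 both encoding parts of TFIIIC. The call of GTF3C1 was lost with median-ratio scaling (adjusted p = 0.0640) and with quantile normalization (adjusted p = 0.0877). The call of POLR3F was lost with no filter on level (limma adjusted p = 0.0619), and its log2 change was -0.41 without siCtrl 2. GTF3C4 stood at 27.1, 26.3 and 26.6 TPM in siNUDT5 and at 43.8, 51.6 and 45.3 TPM in siCtrl, without overlap.

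Of 43 other small subunit factors, WDR36 (-0.65) fell and BMS1 (0.29), a GTPase of the processome, rose, though BMS1 missed the threshold with median-ratio scaling (adjusted p = 0.0544). WDR36 had a log2 change of -0.47 without siCtrl 2. With the replicate number as a block neither WDR36 nor BMS1 passed (limma adjusted p = 0.0579 and 0.211). Of 47 other large subunit factors, RSL24D1 (0.82) and ZNF622 (0.34), both of pre-60S maturation, rose. RSL24D1 stood at 172, 133 and 147 TPM in siNUDT5 and at 66.8, 114 and 79.9 TPM in siCtrl, and RefSeq names 11 pseudogenes after it. Of 19 exosome and trimming genes, EXOSC2 (0.31) rose, a call lost with median-ratio scaling (adjusted p = 0.0507) and with quantile normalization (adjusted p = 0.0589). None of the 13 other snoRNP genes passed in limma (4 at an unadjusted p under 0.05), and none of the 6 genes tested around RPL5, RPL11 and MDM2 did (1 at an unadjusted p under 0.05). Without siCtrl 2, 51 of the 225 pathway genes passed.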

How the data were processed

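RNA from 6 U2OS libraries was measured 48 hours after siRNA transfection. Strand-specific mRNA libraries were made from 200 ng of total RNA, per the labels' protocols. In the table the authors deposited, values are TPM by gene symbol, and each library's column sums to 1000000. The hg19 build is named, and STAR 2.7.3a and DESeq2 1.22.1 as tools, without roles, per the submitters' processing notes. No source used here gives how TPM were computed, the annotation, strand use or the handling of shared reads.

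TPM are normalized values, so limma 3.58.1 in R 4.3.3 was fitted to log2(TPM + 1) with eBayes and a trend, two-sided, with Benjamini-Hochberg adjustment over the 12236 genes that averaged 1 TPM or more. Fold changes on this scale understate those of low genes. Python 3.11.15 with numpy 2.4.6, pandas 2.3.3, scipy 1.17.1 and matplotlib 3.10.9 did the rest. The fit was tested on simulated data with independent noise, which leave out the shared lean of siCtrl 2 with GC content. Relative depth came from the commonest ratio between siCtrl 1 and each other library over genes under 0.3 TPM in siCtrl 1 (under 0.6 TPM in the other). GC content came from GENCODE 29 transcripts, for 98.3% of tested genes. Promoter windows came from RefSeq (GRCh38.p14). The GC adjustment subtracted, per library, a second-degree polynomial of the deviation from the gene mean on GC content, with its intercept.

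Members and lists were chosen with earlier results of these data known. Values per library are given for members past the threshold, for a fixed set of core factors and for members described beside them after their values were seen. Up to 3 genes past the threshold are named per further list, by size of change, and MLX, the next of its list, was added after its value was seen. PICT1 was the 1 list entry for which the name lookup gave no single match, which does not show that its gene was absent. No pair of libraries shared an identical value above 0 in any gene. Blood cell markers are not reported here.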

Additional observations from a re-analysis of the deposited data

How the results depend on the processing

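NUDT5 passed under each alternative run. The count of members past the threshold, 3 with all libraries, was 6 with median-ratio scaling, 5 with quantile normalization, 25 with the GC adjustment added after seeing the data, and 0 to 13 with each library left out in turn. It was 0 without siCtrl 3 and without siNUDT5 1, 2 or 3, where 7, 7, 7 and 6 members had an unadjusted p under 0.05, and 6 without siCtrl 1. All genes past the threshold numbered 1970, against 1936 with median-ratio scaling, 1983 with quantile normalization and 4887 with the GC adjustment. With each library left out they numbered 766 to 3802, the highest without siCtrl 2 and the lowest without siNUDT5 3. Genes of the 10 further lists numbered 18, against 87 with the GC adjustment and 6 to 51 with each library left out. Same-numbered libraries deviated apart (correlations of -0.426, -0.538 and -0.0449 over 12236 genes), and none correlated best with its own number. Deviations within a group sum to 0 and libraries leaned with GC content, so this cannot show whether same-numbered libraries were made together. With the replicate number as a block 739 genes, 0 members (7 at an unadjusted p under 0.05) and 5 list genes passed, with limma adjusted p of 0.118 for MYC, 0.118 for MAX and 0.0819 for RRN3. Quantile normalization turned the split of all calls to 51.3% higher, and median-ratio scaling to 53.8%, from 67.7%, and moved the median of all genes by -0.06 and -0.05. MYC, MAX and RRN3 were lower in all 15 alternatives. Signs of other members turned in 47 cases, with neither value past the threshold. The causes were not tested. Depth per library is known only relative to siCtrl 1, so no counting interval could be given.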
